A study of Mus musculus with 8 samples.

Results

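The lysosomal enzymes and membrane proteins described here are encoded by 35 of the 31053 genes in the count table, taken by gene symbol. The rule used no measured value, but the genes were chosen with earlier results of these data known. They comprise 11 proteases and peptidases (*Ctsa*, *Ctsb*, *Ctsc*, *Ctsd*, *Ctsf*, *Ctsh*, *Ctsl*, *Ctss*, *Ctsz*, *Lgmn* and *Tpp1*), 6 glycosidases (*Hexa*, *Gla*, *Glb1*, *Gusb*, *Man2b1* and *Neu1*), 5 enzymes and binding proteins grouped here under lipids and sphingolipids (*Ppt1*, *Asah1*, *Psap*, *Gm2a* and *Grn*), 2 cholesterol export proteins (*Npc1* and *Npc2*), 5 membrane proteins (*Lamp1*, *Lamp2*, *Scarb2*, *Cd68* and *Laptm5*), 5 subunits of the proton pump V-ATPase (*Atp6v0c*, *Atp6v0d1*, *Atp6v1a*, *Atp6v1b2* and *Atp6ap1*) and the transcription factor *Tfeb*. Bulk RNA of visceral white adipose tissue (vWAT) was sequenced from 4 KIKO and 4 WT mice, with 1 library per mouse. KIKO mice are a germline knockin/knockout model of Friedreich's ataxia, so the genotype is present in every cell of the body. Mice of both genotypes were male, 8 months old and on the C57BL/6 background, and the titles of the libraries name epididymal WAT as the depot. In bulk tissue, fewer cells of a type and less RNA per cell cannot be told apart.

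Lysosomes are acidic organelles that degrade material delivered by endocytosis, phagocytosis and autophagy. The V-ATPase pumps protons into the lumen, where cathepsins, glycosidases and lipid hydrolases work at low pH, and heavily glycosylated membrane proteins line the organelle. Many lysosomal genes carry an E-box in the promoter to which TFEB and related factors bind. In adipose tissue, macrophages that take up lipid and cell debris are rich in lysosomes, and adipocytes also use the lysosome to break down lipids.

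The E-boxes of the members are shown because they are a sequence feature that the choice of genes did not use. RefSeq promoters of GRCm38.p6, which run from 250 bases before to 50 bases after a start site, were matched by symbol to 30 of the 35 members. *Ctsb*, *Ctsh*, *Asah1*, *Npc1* and *Atp6v1b2* had no entry. The letters CACGTG, which read the same on both strands, were present in 10 of the 30 (33.3%), namely *Ctsa*, *Ctsd*, *Ctsf*, *Ctsl*, *Lgmn*, *Gla*, *Glb1*, *Lamp1*, *Atp6v0d1* and *Atp6v1a*. They were present in 7.15% of all 32851 promoters and in 12% of the 8728 tested genes with a promoter. The longer form TCACGTG, searched on both strands and always overlapping a CACGTG, was present in 8 of the 30 members (26.7%), against 3.77% of all promoters and 7.24% of the tested genes. *Lamp1* had 4 CACGTG, the most among the members. The windows below are 30 bases long, 5′ to 3′ on the strand of the gene, with CACGTG in capitals.
Lamp1, first window: gatatCACGTGgtccagcgccCACGTGatg
Lamp1, second window: actggCACGTGaccacatCACGTGcggaac
Ctsa: gaacaatgagcaaactgtCACGTGatgcag
Ctsd: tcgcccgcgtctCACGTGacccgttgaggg
Glb1: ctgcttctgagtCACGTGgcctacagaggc
Lgmn: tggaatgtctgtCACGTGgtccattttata
Atp6v1a: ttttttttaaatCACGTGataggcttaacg
Gla: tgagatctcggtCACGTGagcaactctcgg
In GRCm38.p6, the *Lamp1* windows lie at chr8:13159095-13159124 and chr8:13159128-13159157 on the plus strand, and together they hold the 4 copies within the 66 bases before the RefSeq start. The *Ctsa* window lies at chr2:164833743-164833772 (plus), *Ctsd* at chr7:142387908-142387937 (minus), *Glb1* at chr9:114401018-114401047 (plus), *Lgmn* at chr12:102439124-102439153 (minus), *Atp6v1a* at chr16:44139373-44139402 (minus) and *Gla* at chrX:134601182-134601211 (minus). By the GENCODE vM21 annotation, the windows of *Lamp1*, *Glb1* and *Gla* lie outside the gene, those of *Lgmn* and *Atp6v1a* in an intron, and those of *Ctsa* and *Ctsd* in an exon of at least one transcript. The 10 members with a CACGTG had a median log2 fold change of 0.08 in KIKO against WT mice, and the 19 tested members with a promoter entry but no CACGTG had 0.17. A match of letters is not evidence of a bound site.

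The libraries held 2602189 to 3478539 counts. Levels are given as CPM (counts per 1000000 counts of the TMM-scaled library). WT mouse 3 stood apart from the other WT mice: on the first principal component it lay at 12.6, among the KIKO mice (4.04 to 24.0) and away from the other WT mice (-38.6 to -8.43). Across genes, which are not independent replicates, the Spearman's rho between transcript length and the relative level of a library was -0.214 to -0.0843 in KIKO mice, -0.110 in WT mouse 3 and 0.110 to 0.262 in the other WT mice. Mitochondrially encoded genes took 9.93% to 10.6% of the counts in KIKO mice and 6.91% to 10.7% in WT mice, with the highest share in WT mouse 3. No check of the genotype label of WT mouse 3 is reported, and every fold change from all 8 mice rests on it: with this mouse 0 members and 75 genes passed in edgeR, and without it 2 members and 654 genes. The part of these differences in the results below was not tested, except that results are given with and without WT mouse 3 and with an offset for the length and GC content of the transcripts.

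The log2 fold changes of most of the listed members in vWAT of KIKO against WT mice were slightly above 0. This did not extend to the other genes of the lysosomal pathway, of which 46 of 102 tested were above 0. No member differed between the genotypes beyond the replicate error once the p-values were adjusted over all genes. Of the 35 members, 34 were tested, and 0 rose and 0 fell at an adjusted p under 0.05 (edgeR's quasi-likelihood test with Benjamini-Hochberg adjustment over 11080 genes, of which 0.28% rose and 0.397% fell, 0.677% in all). At an unadjusted p under 0.05, 9 members were higher (26.5%, against 7.13% of all genes tested) and 1 was lower (2.94%, against 9.06%). Log2 fold changes were above 0 for 24 members (70.6%, against 49% of all genes tested) and below 0 for 10. Their median was 0.16, against -0.01 over all genes tested, and they ranged from -0.66 for *Npc1* to 0.57 for *Cd68*. The longest transcripts of the tested members had a median length of 2758 bases, against 3471 over all genes tested. With the length and GC offset, 24 members were above 0. In that fit, 7 members had an unadjusted p under 0.05 in either direction, beside 1609 of the 11080 genes tested (edgeR). All 4 KIKO mice lay above all 4 WT mice for 6 members (17.6%, against 3.89% of all genes tested) and below them for 1 member, *Gusb* (against 4.56%). The limma-voom test and limma-trend on the authors' log2 values also gave 0 members, whereas DESeq2 called 2 members higher, *Cd68* and *Ctss*, of the 31 to which it gave an adjusted p (2.03% of 6616 genes were called higher and 1.9% lower). The 95% intervals of 24 of the 34 members lay within 1.5-fold in either direction, and those of the other 10 reached past it. The spans of 11 of the 35 members overlap another gene with counts, and where counting did not use strand the reads of such genes could not be told apart.

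**Figure D1:**
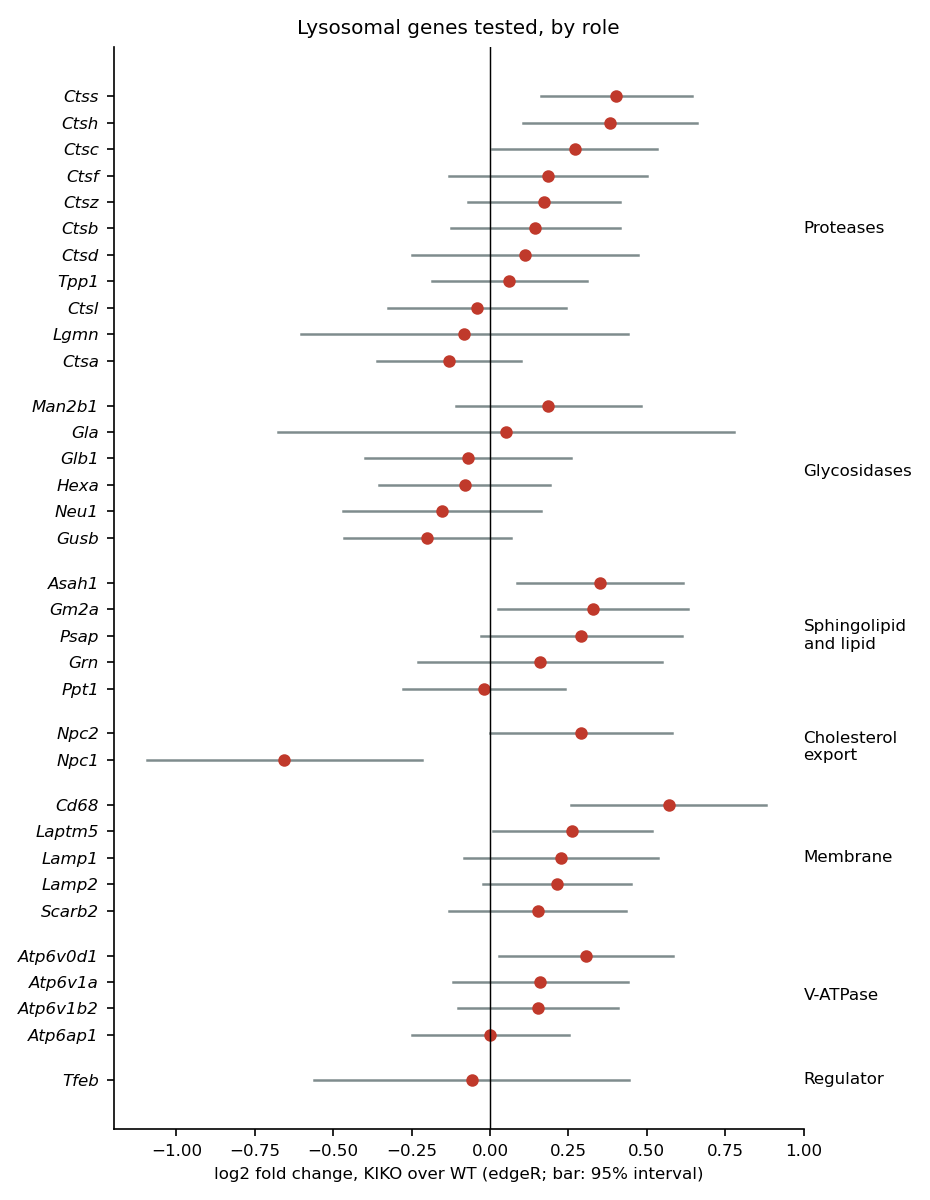
Log2 fold change of KIKO over WT for the 34 tested lysosomal genes (horizontal axis), grouped by role down the page, with points for the edgeR estimates and bars for the 95% intervals. All 5 membrane proteins lie above 0, the glycosidases lie on both sides of 0, and *Npc1* at -0.66 and *Cd68* at 0.57 are the ends of the range.

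*Cd68*, *Ctss* and *Npc1* had the smallest p-values among the members. *Cd68* (ENSMUSG00000018774, chromosome 11 from 69664213 to 69666153, GRCm38), which encodes a heavily glycosylated membrane protein of late endosomes and lysosomes and a common marker of macrophages, measured 48.5, 49.2, 51.8 and 56.5 CPM in KIKO mice 1 to 4 and 26.3, 35.4, 39.2 and 38.2 CPM in WT mice 1 to 4. The groups did not overlap, and WT mouse 1 was the lowest of the 8. The means were 51.5 ± 3.64 CPM in KIKO and 34.8 ± 5.85 CPM in WT mice (SD, n = 4 each), which is 1.48-fold (log2 fold change 0.57, standard error 0.15, adjusted p = 0.0836 from edgeR). DESeq2 gave *Cd68* a log2 fold change of 0.58 with an adjusted p of 0.0287, and edgeR without WT mouse 3 gave 0.63 with an adjusted p of 0.0270.

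The other membrane proteins lay in the same direction, and 0 of the 5 passed the test with all 8 mice (2 at an unadjusted p under 0.05, edgeR). *Laptm5*, a lysosomal transmembrane protein of haematopoietic cells, measured 115.5, 144.7, 116.3 and 120.7 CPM in KIKO mice 1 to 4 and 96.7, 112.7, 99.7 and 104.8 CPM in WT mice 1 to 4. These groups did not overlap, although KIKO mouse 1 and WT mouse 2 differed by little (log2 fold change 0.26, standard error 0.12, adjusted p = 0.291 from edgeR). LAMP1 and LAMP2 are the most abundant glycoproteins of the lysosomal membrane, and LAMP2 also acts in chaperone-mediated autophagy. *Lamp1* measured 1202, 1111, 842.6 and 1033 CPM in KIKO mice 1 to 4 and 882.9, 775.0, 1078 and 840.2 CPM in WT mice 1 to 4 (log2 fold change 0.23, standard error 0.15, adjusted p = 0.470 from edgeR). *Lamp2* measured 275.9, 269.0, 245.9 and 285.6 CPM in KIKO mice 1 to 4 and 235.5, 220.8, 246.7 and 225.4 CPM in WT mice 1 to 4 (log2 fold change 0.21, standard error 0.11, adjusted p = 0.358 from edgeR). Both genes overlapped between the groups, and in both WT mouse 3 was the highest WT mouse and KIKO mouse 3 the lowest KIKO mouse. *Scarb2*, which encodes LIMP-2, the sorting receptor of glucocerebrosidase, had a log2 fold change of 0.15 (adjusted p = 0.615 from edgeR).

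Among the proteases and peptidases, 0 of 11 passed in edgeR (3 at an unadjusted p under 0.05, all above 0), 8 had a log2 fold change above 0 and 3 below, and the median was 0.14. *Ctss* (ENSMUSG00000038642, chromosome 3 from 95526786 to 95556403), which encodes cathepsin S, a cysteine protease that trims the invariant chain in antigen presentation, measured 139.0, 139.1, 119.9 and 122.4 CPM in KIKO mice 1 to 4 and 92.9, 98.4, 100.4 and 101.5 CPM in WT mice 1 to 4. All KIKO mice were above all WT mice, and the 4 WT mice lay close together. The means were 130.1 ± 10.4 CPM in KIKO and 98.3 ± 3.82 CPM in WT mice (SD, n = 4 each; log2 fold change 0.40, standard error 0.11, adjusted p = 0.100 from edgeR). DESeq2 gave *Ctss* 0.41 with an adjusted p of 0.0267, and with the length and GC offset the edgeR value was 0.29 (adjusted p = 0.229). *Ctsh* (chromosome 9 from 90054152 to 90076089), which encodes cathepsin H, an aminopeptidase that also matures surfactant proteins in the lung, measured 137.6, 163.9, 117.6 and 119.8 CPM in KIKO mice 1 to 4 and 95.7, 102.4, 113.8 and 100.8 CPM in WT mice 1 to 4. The groups were again apart, with KIKO mouse 3 next to WT mouse 3 (log2 fold change 0.38, standard error 0.13, adjusted p = 0.167 from edgeR).

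*Ctsc*, which encodes cathepsin C, the peptidase that activates serine proteases of mast cells and other leukocytes, measured 138.6, 173.0, 188.2 and 175.2 CPM in KIKO mice 1 to 4 and 134.4, 155.7, 136.9 and 132.6 CPM in WT mice 1 to 4. KIKO mouse 1 was at the level of the WT mice, and the groups overlapped (log2 fold change 0.27, standard error 0.12, adjusted p = 0.296 from edgeR). The other 8 proteases lay between -0.13 for *Ctsa* and 0.19 for *Ctsf*. *Ctsl*, which encodes the endopeptidase cathepsin L, had -0.04 (0.05 with the length and GC offset), and *Ctsz*, a carboxypeptidase whose span overlaps *Nelfcd* on the other strand (3463 counts over the 8 libraries, beside 3961 for *Ctsz*), had 0.17. *Ctsd*, which encodes the aspartic protease cathepsin D and had the highest level per length among the members (697 CPM per kb of transcript over the 8 mice), measured 1460, 1794, 1469 and 1432 CPM in KIKO mice 1 to 4 and 1187, 1108, 1933 and 1471 CPM in WT mice 1 to 4. WT mouse 3 had the highest *Ctsd* level of all 8 mice, and the log2 fold change was 0.11 with all mice and 0.29 without WT mouse 3 (adjusted p = 0.792 and 0.229 from edgeR). *Ctsb*, which encodes the cysteine protease cathepsin B, averaged 891.3 ± 26.0 CPM in KIKO and 806.5 ± 109 CPM in WT mice (SD, n = 4 each), also with WT mouse 3 the highest of the 8. *Ctsa* encodes the protective protein that keeps β-galactosidase and neuraminidase in one complex, and its span overlaps *Pltp*, which lies on the other strand and had 2311 counts over the 8 libraries beside 3074 for *Ctsa*. *Lgmn*, an asparaginyl endopeptidase, and *Tpp1*, a tripeptidyl peptidase, had log2 fold changes of -0.08 and 0.06, and *Lgmn* was low, at 7.92 to 14.3 CPM in KIKO and 8.03 to 12.7 CPM in WT mice.

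The sphingolipid and lipid genes had the highest median of the role groups, 0.29 over 5 genes, of which 4 were above 0 and 0 passed in edgeR (2 at an unadjusted p under 0.05). *Asah1* (chromosome 8 from 41340197 to 41374773), which encodes acid ceramidase, measured 44.6, 46.0, 52.2 and 44.5 CPM in KIKO mice 1 to 4 and 36.8, 36.3, 37.5 and 36.2 CPM in WT mice 1 to 4. The means were 46.8 ± 3.63 CPM in KIKO and 36.7 ± 0.587 CPM in WT mice (SD, n = 4 each), with KIKO mouse 3 the highest, and the groups did not overlap (log2 fold change 0.35, standard error 0.12, adjusted p = 0.177 from edgeR). *Gm2a*, which encodes the activator that presents ganglioside GM2 to hexosaminidase, measured 309.3, 249.0, 186.3 and 258.1 CPM in KIKO mice 1 to 4 and 207.6, 186.6, 212.2 and 192.6 CPM in WT mice 1 to 4. KIKO mouse 3 was below all WT mice, and the other KIKO mice were above them (log2 fold change 0.33, standard error 0.14, adjusted p = 0.267 from edgeR). *Psap* encodes prosaposin, the precursor of the saposins that assist sphingolipid hydrolases, and measured 602.0, 719.3, 609.7 and 713.5 CPM in KIKO mice 1 to 4 and 454.9, 431.6, 662.0 and 612.2 CPM in WT mice 1 to 4. WT mice 3 and 4 were at the level of the KIKO mice, whereas WT mice 1 and 2 were below it (log2 fold change 0.29, standard error 0.15, adjusted p = 0.3602 from edgeR, and 0.41 with adjusted p = 0.107 without WT mouse 3). *Grn*, which encodes progranulin, a secreted and lysosomal binding partner of prosaposin, ranged from 881.8 to 1490 CPM in KIKO and from 896.1 to 1467 CPM in WT mice. *Ppt1*, a palmitoyl-protein thioesterase, had a log2 fold change of -0.02 with a 95% interval of -0.28 to 0.24, and its span overlaps *Cap1* on the other strand (1063 counts over the 8 libraries, beside 1341 for *Ppt1*).

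The cholesterol export proteins lay on opposite sides of 0. NPC2 binds cholesterol in the lumen and hands it to NPC1, which passes it to the membrane. *Npc1* measured 28.4, 39.2, 26.6 and 38.1 CPM in KIKO mice 1 to 4 and 69.4, 60.3, 34.8 and 43.2 CPM in WT mice 1 to 4. WT mouse 3 lay within the KIKO range, and the 3 other WT mice were above all KIKO mice. The means were 33.0 ± 6.49 CPM in KIKO and 51.9 ± 15.8 CPM in WT mice (SD, n = 4 each), and the log2 fold change of -0.66 was the lowest of the 34 members (standard error 0.21, adjusted p = 0.136 from edgeR). *Npc1* passed in edgeR without WT mouse 3 (-0.80, adjusted p = 0.0224) and with no filter on low counts (-0.66, adjusted p = 0.0257), but not in DESeq2 (-0.64, adjusted p = 0.0797). Its span overlaps *Rmc1* and *Gm15956* on the other strand, which had 96 and 26 counts over the 8 libraries beside 1047 for *Npc1*. *Npc2* measured 1919, 1830, 1777 and 1761 CPM in KIKO mice 1 to 4 and 1497, 1244, 1803 and 1412 CPM in WT mice 1 to 4. The KIKO mice lay close together, and of the WT mice only mouse 3 reached their range (log2 fold change 0.29, standard error 0.14, adjusted p = 0.306 from edgeR, and 0.40 with adjusted p = 0.0734 without WT mouse 3).

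**Figure D2:**
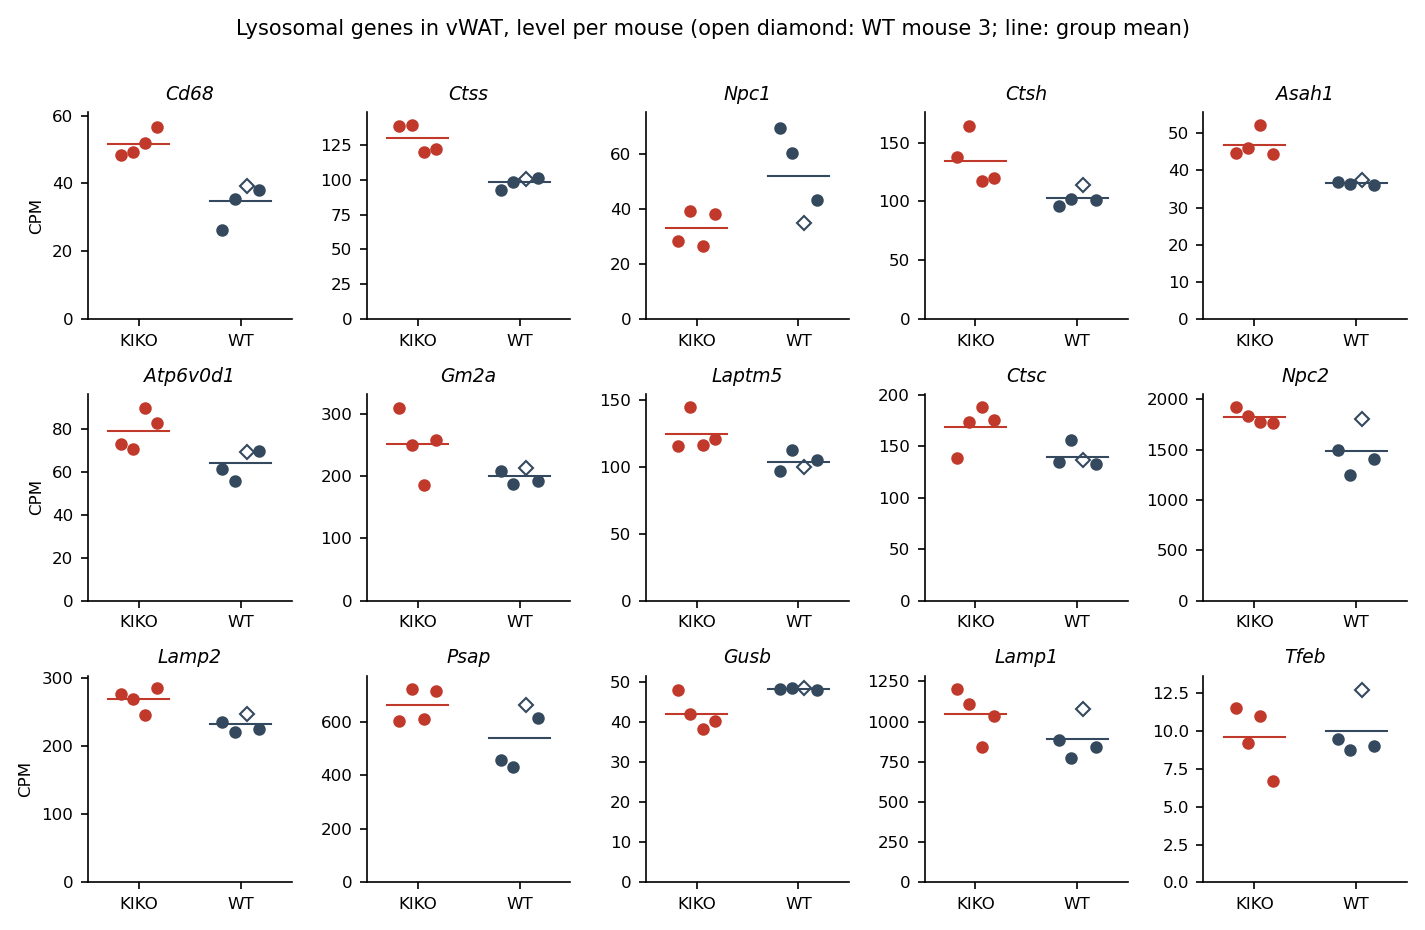
Level of 15 lysosomal genes in each mouse (vertical axis, CPM from 0, 1 panel per gene), with KIKO mice left, WT mice right, horizontal lines at the group means and WT mouse 3 as an open diamond. The groups are apart for *Cd68*, *Ctss*, *Ctsh*, *Asah1*, *Atp6v0d1*, *Laptm5* and, by a small gap, *Gusb*, and WT mouse 3 sits at the KIKO level for *Npc1*, *Npc2*, *Psap* and *Lamp1*.

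The glycosidases were the only group of more than 2 members with a median below 0, at -0.08 over 6 genes, and 0 passed in edgeR (0 at an unadjusted p under 0.05). *Gusb*, which encodes β-glucuronidase, measured 47.9, 42.0, 38.2 and 40.1 CPM in KIKO mice 1 to 4 and 48.2, 48.5, 48.5 and 47.9 CPM in WT mice 1 to 4. Every KIKO mouse was below every WT mouse, but KIKO mouse 1 and WT mouse 4 were nearly equal, at 47.86 and 47.89 CPM, so the separation of the groups rests on a difference smaller than the precision of the counts (log2 fold change -0.20, standard error 0.13, adjusted p = 0.462 from edgeR). *Man2b1*, the lysosomal α-mannosidase, had the highest log2 fold change of the group at 0.19, at 117.2 to 131.8 CPM in KIKO mice, below the 132.9 CPM of WT mouse 3. *Hexa*, the α subunit of β-hexosaminidase, *Glb1*, the lysosomal β-galactosidase, and *Neu1*, the lysosomal sialidase, had log2 fold changes of -0.08, -0.07 and -0.15. *Gla*, which encodes α-galactosidase A, was the lowest of the tested members per length (1.23 CPM per kb of transcript over the 8 mice) and had a log2 fold change of 0.05 with a 95% interval of -0.68 to 0.78, which reaches past 1.5-fold in both directions.

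Of the 5 V-ATPase genes, 4 were tested, 0 passed in edgeR (1 at an unadjusted p under 0.05), and the 4 log2 fold changes were at or above 0. *Atp6v0d1* (chromosome 8 from 105524465 to 105566047), which encodes the d subunit that links the membrane ring to the rotating stalk, measured 72.9, 70.3, 89.7 and 82.6 CPM in KIKO mice 1 to 4 and 61.2, 55.7, 68.9 and 69.7 CPM in WT mice 1 to 4. The groups did not overlap, with KIKO mouse 2 just above WT mouse 4 (log2 fold change 0.31, standard error 0.13, adjusted p = 0.257 from edgeR). The catalytic A subunit *Atp6v1a* and the B subunit *Atp6v1b2* had log2 fold changes of 0.16 and 0.15, and *Atp6ap1*, an accessory subunit of pump assembly, averaged 426.4 ± 35.8 CPM in KIKO and 426.1 ± 30.8 CPM in WT mice (SD, n = 4 each; log2 fold change 0.00, 95% interval -0.25 to 0.25). *Atp6v0c*, which encodes the c subunit of the membrane ring, was left out by the filter on low counts: it had 0 counts in all 4 KIKO mice and 1, 1, 0 and 1 counts in WT mice 1 to 4. The V-ATPase works in every cell, so this near absence is not read as a level of the transcript. Annotated pseudogenes of *Atp6v0c* could share its reads and were not analysed here, and the reason for the low counts was not tested.

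*Tfeb*, the transcription factor that acts on many lysosomal promoters, was low and did not separate the genotypes. It measured 11.6, 9.19, 11.01 and 6.74 CPM in KIKO mice 1 to 4 and 9.51, 8.78, 12.7 and 9.04 CPM in WT mice 1 to 4. KIKO mouse 4 was the lowest and WT mouse 3 the highest of the 8 (log2 fold change -0.06, standard error 0.24, adjusted p = 0.925 from edgeR). The 95% interval ran from -0.56 to 0.44, and the transcript level does not show where the protein is in the cell.

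The members also differed among the mice within a genotype, and WT mouse 3 was the library in which most of them were higher than in its group. As a summary over the 34 tested members, the median log2 level of a library relative to the mean of the 8 mice was 0.05, 0.11, 0.04 and 0.09 in KIKO mice 1 to 4 and -0.13, -0.13, 0.03 and -0.08 in WT mice 1 to 4. WT mouse 3 was therefore close to the KIKO mice, and the lowest KIKO median was just above it. WT mouse 3 was the highest WT mouse for 21 of the 34 members (61.8%, against 29.5% of all genes tested). It was above all 4 KIKO mice for 8 members (23.5%), and the share over all genes was not computed. The summed level of the members was 10882, 10965, 9550 and 10501 CPM in KIKO mice 1 to 4 and 8660, 8203, 11073 and 9110 CPM in WT mice 1 to 4, a sum that is carried by *Npc2*, *Ctsd*, *Grn* and *Lamp1*. Without WT mouse 3, the median log2 fold change of the members was 0.23, 25 of the 34 were above 0, and 2 passed in edgeR, *Cd68* higher (2.53% of 11261 genes rose) and *Npc1* lower (3.28% fell). Without WT mouse 1 the median was 0.09, and with the length and GC offset it was 0.12 with 0 members called.

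**Figure D3:**
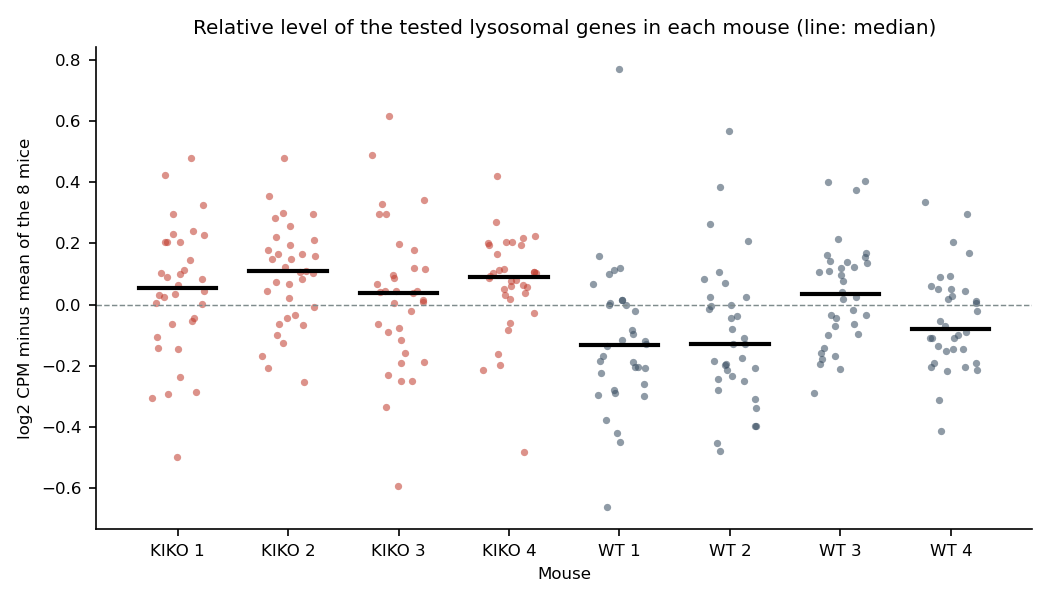
Log2 CPM of each of the 34 tested lysosomal genes minus its mean over the 8 mice (vertical axis), for KIKO mice 1 to 4 and WT mice 1 to 4 along the horizontal axis, with 1 point per gene and a line at the median. The medians are 0.04 to 0.11 in KIKO mice, 0.03 in WT mouse 3 and -0.13 to -0.08 in the other WT mice.

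**Figure D4:**
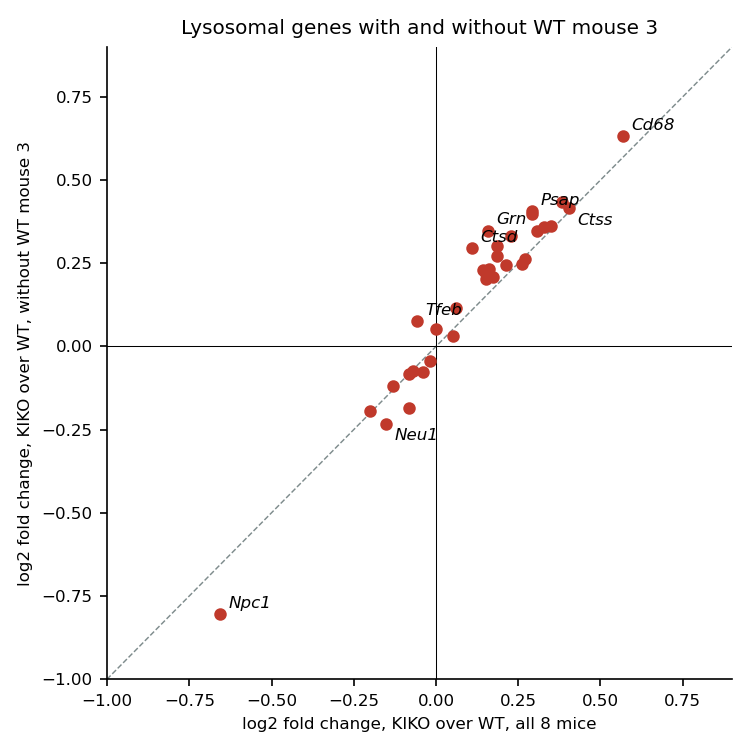
Log2 fold change of KIKO over WT for the 34 tested lysosomal genes with all 8 mice (horizontal axis) and without WT mouse 3 (vertical axis), 1 point per gene, with a dashed line of equality. *Cd68* stands at 0.57 and 0.63, *Npc1* at -0.66 and -0.80, and *Ctsd*, *Grn* and *Psap* lie above the line.

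The other genes of the lysosomal pathway, 106 genes in 6 lists, had a median log2 fold change of -0.01, against 0.16 for the members. Of the 102 tested, 1 rose and 0 fell in edgeR, against 0.28% and 0.397% of all genes tested. At an unadjusted p under 0.05 (edgeR), 7 were higher and 4 lower, against 7.13% and 9.06% of all genes tested. Log2 fold changes were above 0 for 46 (against 49% of all genes tested) and below 0 for 56. The medians were -0.01 over 27 other hydrolases, 0.02 over 18 other membrane proteins, -0.07 over 13 other V-ATPase subunits, -0.04 over 14 genes of MiT/TFE factors and Rag GTPase signalling, 0.04 over 10 genes of mannose 6-phosphate sorting and -0.03 over 20 autophagy genes. The difference between the members and these lists was not tested. The gene that passed was *Rraga* (chromosome 4 from 86575668 to 86577285), which encodes the GTPase RagA that recruits mTORC1 to the lysosome. It measured 88.8, 90.7, 104.6 and 88.5 CPM in KIKO mice 1 to 4 and 46.6, 46.3, 75.6 and 51.2 CPM in WT mice 1 to 4. The groups did not overlap, and WT mouse 3 was the nearest to the KIKO mice. *Rraga* averaged 93.1 ± 7.72 CPM in KIKO and 54.95 ± 13.97 CPM in WT mice (SD, n = 4 each; log2 fold change 0.76, standard error 0.16, adjusted p = 0.0442 from edgeR). It passed in edgeR without WT mouse 3 (adjusted p = 0.00409) and in none of the other 7 fits that left out 1 mouse, whose adjusted p reached 0.169, nor with the length and GC offset (0.0668). In those 7 fits its log2 fold change was 0.69 to 0.79. Without KIKO mouse 4, WT mouse 2 or WT mouse 4, edgeR called 0 of all genes tested.

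Across the 6 lists, the other genes named for the smallest p-values lay in both directions, and none of them passed in edgeR with all 8 mice. *Mcoln1*, the lysosomal cation channel TRPML1, measured 23.1, 18.8, 21.4 and 15.8 CPM in KIKO mice 1 to 4 and 27.6, 34.5, 34.1 and 26.8 CPM in WT mice 1 to 4. KIKO mice were all below WT mice, WT mouse 3 included (log2 fold change -0.64, standard error 0.17, adjusted p = 0.0891 from edgeR). *Cd63*, a tetraspanin of late endosomes, averaged 918.4 ± 70.4 CPM in KIKO and 677.9 ± 51.8 CPM in WT mice, also without overlap (SD, n = 4 each; log2 fold change 0.44, adjusted p = 0.100 from edgeR). *Laptm4a*, a relative of *Laptm5* named after its values were seen, averaged 984.5 ± 21.8 CPM in KIKO and 718.9 ± 95.5 CPM in WT mice, without overlap (SD, n = 4 each; log2 fold change 0.45, adjusted p = 0.100 from edgeR). *Rptor*, a subunit of mTORC1, had a log2 fold change of -0.58 (adjusted p = 0.167), *Map1lc3b*, an LC3 protein of the autophagosome, 0.44 (0.153), and *Wipi2*, which acts in autophagosome formation, -0.25 (0.359), all from edgeR. The V-ATPase a subunit *Tcirg1* had -0.49 (0.207) and the accessory subunit *Atp6ap2* 0.28 (0.281). The acid phosphatase *Acp5* had 0.39 (0.287) and the lysosomal acid lipase *Lipa* -0.30 (0.324). The sorting adaptor *Gga1* had -0.33 (0.257) and *Gnptg*, a subunit of the enzyme that makes the mannose 6-phosphate tag, 0.60 (0.262).

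DESeq2 called 3 of the 86 pathway genes to which it gave an adjusted p, all higher (2.03% of 6616 genes were called higher and 1.9% lower). They were *Rraga* (adjusted p = 0.00222), *Cd63* (0.00273) and *Laptm4a* (0.00675). With no filter on low counts, edgeR called *Rraga* (adjusted p = 0.00195) higher and *Mcoln1* (0.0389) lower, of 102 pathway genes. In the same fit 146 of all 18092 genes rose and 236 fell. Without WT mouse 3 edgeR called 5 higher and 0 lower (2.53% of 11261 genes rose and 3.28% fell). The 5 were *Rraga* (0.00409), *Laptm4a* (0.0190), *Map1lc3b* (0.0214), the sulfamidase gene *Sgsh* (0.0231) and *Acp5* (0.0394). The largest adjusted p of each of them over the edgeR fits that left out 1 mouse was 0.169 to 0.810.

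The log2 fold changes of macrophage markers also lay mostly above 0. Of 20 macrophage markers, all tested, 1 rose and 0 fell in edgeR, against 0.28% and 0.397% of all genes tested. At an unadjusted p under 0.05 (edgeR), 7 were higher and 1 lower, against 7.13% and 9.06% of all genes tested. Of the 20 markers, 17 had a log2 fold change above 0 (against 49% of all genes tested), with a median of 0.34. Their summed level was 2409 to 3055 CPM in KIKO and 2121 to 2393 CPM in WT mice, and no marker was at 0 in every mouse. Of this sum, *Lyz2* alone gave 578.3 to 705.4 CPM in KIKO and 226.0 to 463.5 CPM in WT mice, so the sum is not a measure of the list as a whole. *Lyz2*, the lysozyme of myeloid cells, measured 671.0, 705.4, 578.3 and 686.9 CPM in KIKO mice 1 to 4 and 226.0, 305.0, 463.5 and 371.0 CPM in WT mice 1 to 4 (log2 fold change 0.95, standard error 0.18, adjusted p = 0.0326 from edgeR). *Lyz2* rose without overlap of the groups, and WT mouse 3 was again the WT mouse nearest to the KIKO mice. When 1 mouse was left out, *Lyz2* passed only without WT mouse 1 or WT mouse 3 (adjusted p = 0.0357 and 0.00444), and its adjusted p without any one of the other mice was 0.0519 to 0.159. The fits without KIKO mouse 4, WT mouse 2 or WT mouse 4 called 0 of all genes tested. Without WT mouse 3, 5 macrophage markers rose and 1 fell (against 2.53% and 3.28% of 11261 genes), the last being *Mertk*. *Spi1*, a transcription factor of myeloid cells, had a log2 fold change of 0.70 (adjusted p = 0.0803) and *Ptprc*, the leukocyte antigen CD45, 0.46 (adjusted p = 0.131), both from edgeR. WT mouse 3 had the lowest *Ptprc* level of the 8 mice, at 38.5 CPM. The markers did not all lie in one direction, since *Mertk*, a receptor for dying cells on macrophages, had -0.97 (adjusted p = 0.0959 from edgeR). The part of macrophages in the levels of the lysosomal genes was not tested.

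Among the markers of other cells, the mast cell proteases *Cpa3* (log2 fold change 1.58, adjusted p = 0.0255 from edgeR) and *Cma1* (1.22, adjusted p = 0.0255) rose, as did the keratin *Krt19* of mesothelial cells (1.15, adjusted p = 0.0326), with 3 tested mast cell markers and 4 tested mesothelial markers. Over all genes tested, 0.28% rose and 0.397% fell. The other tested mast cell marker, the receptor gene *Kit*, which was named after its values were seen, lay the other way at 2.34 ± 0.771 CPM in KIKO and 5.53 ± 0.840 CPM in WT mice (SD, n = 4 each), with all KIKO mice below all WT mice (log2 fold change -1.24, adjusted p = 0.0942 from edgeR). *Cpa3*, *Cma1* and *Krt19* all lost the call without KIKO mouse 4, WT mouse 2 or WT mouse 4 (adjusted p = 0.0662 to 0.152 from edgeR). In these fits edgeR called 0 of all genes tested. *Cma1* and *Krt19* also lost it without KIKO mouse 1 (0.0781 and 0.122), and *Krt19* without KIKO mouse 2 (0.0582). The adipocyte hormone gene *Adipoq* had 0.54 (adjusted p = 0.102 from edgeR) and the adipocyte protease gene *Cfd* 0.71 (0.112). Of the adipocyte markers, 6 of 9 were above 0, against 49% of all genes tested. All 6 tested endothelial markers were below 0 with a median of -0.35, and *Flt1* and *Pecam1* had -0.64 (0.100) and -0.34 (0.238). *Dcn* and *Pi16* of progenitors had 0.41 (0.135) and -0.36 (0.260), *Upk3b* of mesothelial cells 0.40 (0.321), *S100a8* of neutrophils 0.02 (0.981), *Zbtb46* of dendritic cells -0.26 (0.470), *Cd2* of T cells 0.29 (0.583), and *Cd79b* of B cells -0.33 (0.736), all as log2 fold change with the adjusted p from edgeR in parentheses. The epididymal markers, which would show a carry-over of the adjoining organ, summed to 0 CPM in KIKO mice and at most 1.21 CPM in WT mice. The markers of adipocytes were present at high levels in every mouse, with a sum of 54318 to 69934 CPM in KIKO and 43545 to 53499 CPM in WT mice, as the tissue label states.

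**Figure D5:**
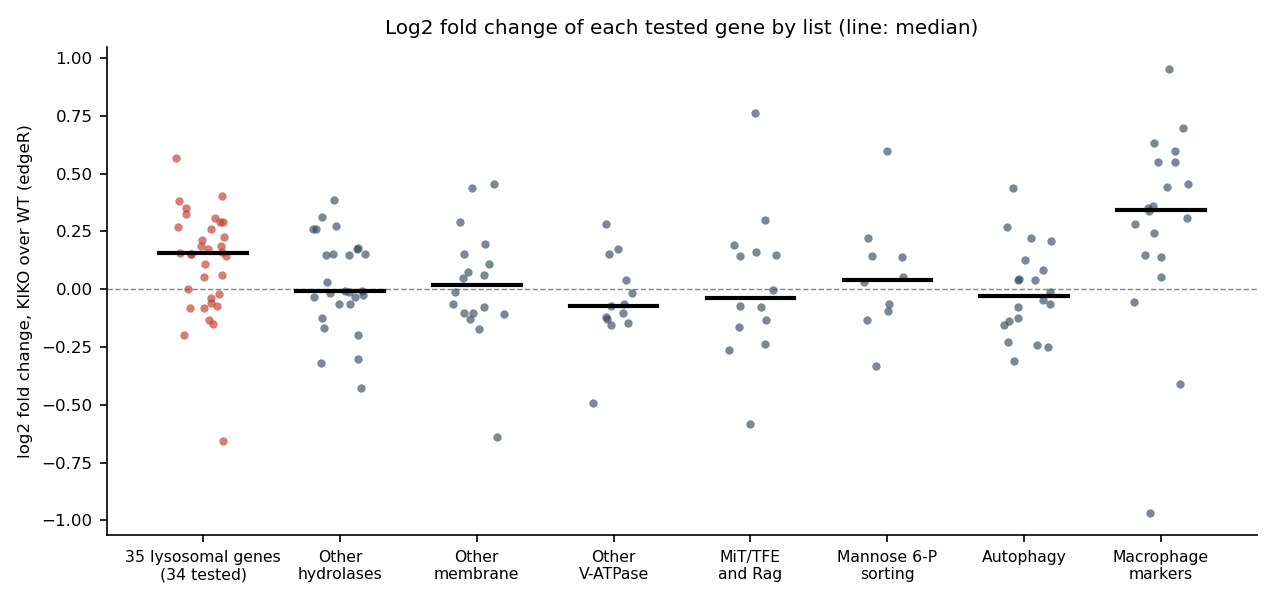
Log2 fold change of KIKO over WT (vertical axis, edgeR) for each tested gene of the 35 lysosomal genes, of 6 other lists of lysosomal and autophagy genes and of the macrophage markers (horizontal axis), with 1 point per gene and a line at the median. The medians are 0.16 for the 34 tested lysosomal genes, -0.07 to 0.04 for the other pathway lists and 0.34 for the macrophage markers.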

How the data were processed

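RNA of vWAT from 4 KIKO and 4 WT mice was sequenced, with 1 library per mouse. Raw counts per Ensembl gene and a second table of log2 values (count divided by a size factor per library, plus 1) were deposited by the authors, who name Trimmomatic, HISAT2, StringTie, the GRCm38 build and DESeq2. The paper names a stranded kit and NextSeq, the sample labels a digital mRNA-seq service and NovaSeq, and the use of strand in counting is not given in the sources used here. Of 31053 genes, 31011 were matched to GENCODE vM21 for symbols and positions.

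Counts were tested in R 4.3.3 with edgeR 4.0.16 (TMM, filterByExpr by genotype, quasi-likelihood test on genotype alone). P-values were adjusted by the Benjamini-Hochberg method over 11080 genes, with a threshold of 0.05. Standard errors were derived from the F statistic. DESeq2 1.42.0, limma 3.58.1 (voom, and trend on the authors' log2 values with pseudocounts of 1 and 8), other normalizations and filters, the replicate number as a block, a length and GC offset (smooth trends per library, mgcv 1.9.3) and leaving out each mouse were run as alternatives. The targeted gene and 1 marker are not reported here. The steps were tested on simulated data. No pair of libraries of one genotype was a duplicate.

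The members and the other lists were chosen with earlier results of these data known. Values of every mouse are given for the members in order of p until 14, and for *Tfeb*. Of the other lists, the genes that passed and up to 2 with the smallest p are named, and *Ctsd*, *Mertk*, *Kit*, *Laptm4a* and *Sgsh* were added after their values were seen.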

Additional observations from a re-analysis of the deposited data

Results flagged for a closer look

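The tested members were searched for a mouse far from the other 3 of its genotype (a gap to the nearest mouse, as a share of the range of the group, above Dixon's critical value at 95%). Genes of the other lists that passed or were named for the smallest p were searched too. Such a mouse was found in 9 of 128 groups of 4 mice, where chance alone gives about 1 in 20 groups. Of the members, *Ctsd* measured 1794 CPM in KIKO mouse 2, against 1432 to 1469 CPM in the other KIKO mice, *Lgmn* 14.25 CPM in KIKO mouse 3, against 7.921 to 8.792 CPM in the others, and *Ctsz* 163.7 CPM in WT mouse 3, against 147.5 to 149.7 CPM in the other WT mice. *Rraga* stood apart in KIKO mouse 3 (104.6 CPM, against 88.46 to 90.72 CPM) and in WT mouse 3 (75.64 CPM, against 46.34 to 51.24 CPM in the other WT mice). WT mouse 3 was also high for *Spi1* (38.15 CPM, against 23.44 to 25.14 CPM) and low for *Ptprc* (38.49 CPM, against 52.31 to 54.92 CPM). *Cd79b* measured 9.991 CPM in KIKO mouse 2, against 2.268 to 3.515 CPM in the other KIKO mice, and *Cfd* 21580 CPM in WT mouse 1, against 16640 to 16860 CPM in the other WT mice. WT mouse 3 accounted for 4 of the 9. *Mertk*, *Kit*, *Laptm4a* and *Sgsh*, added after their values were seen, were not part of this search. Of these, *Mertk* measured 377.6 CPM in WT mouse 1, against 202.6 to 219.5 CPM in the other WT mice. *Sgsh* measured 59.9 CPM in WT mouse 3, against 26.9 to 31.8 CPM in the other WT mice.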

How the results depend on the processing

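The median log2 fold change of the members stayed above 0 in every alternative run, from 0.086 without WT mouse 1 to 0.230 without WT mouse 3. The count of members called was 0 in edgeR, 2 with no filter on low counts (*Cd68* and *Npc1*), 2 in DESeq2 (*Cd68* and *Ctss*) and 0 to 2 when 1 mouse was left out, with 2 only without WT mouse 3. Over all genes, the count was 75 in edgeR, 382 with no filter, 260 in DESeq2, 40 in limma-voom, 45 in limma-trend with a pseudocount of 1, 34 with the length and GC offset, 4 with that offset and the replicate block, and 0 to 654 when 1 mouse was left out (0 without KIKO mouse 4, WT mouse 2 or WT mouse 4, where the unadjusted p was under 0.05 for 1328, 1344 and 1533 genes in edgeR). With the replicate number as a block edgeR called 0 genes, with 1427 at an unadjusted p under 0.05. The deviations of mice with the same number correlated at -0.152, -0.133, -0.113 and 0.028. The labels do not say what the numbers stand for, and such correlations cannot show whether they mark a shared litter or batch.

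Reversals of direction concerned genes near 0, none of which was called. *Atp6ap1* was -9.61e-05 in limma-voom, -0.077 with the offset, -0.078 with the offset and the block, and -0.036 to 0.056 when 1 mouse was left out. *Ctsl* was 0.050 with the offset, 0.056 with the offset and the block, and -0.111 to 0.043 when 1 mouse was left out. *S100a8* was -0.161 with the offset and -0.098 with the offset and the block. When 1 mouse was left out, *S100a8* spanned -0.205 to 0.395, *Gla* spanned -0.237 to 0.230, *Glb1* -0.147 to 0.024, *Lgmn* -0.311 to 0.025, *Ppt1* -0.051 to 0.018 and *Tfeb* -0.160 to 0.090. The cause of these changes was not tested. With 4 mice per genotype and 2602189 to 3478539 counts per library, changes of the low members *Gla*, *Lgmn* and *Tfeb* are the least well determined.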
